A study of Mus musculus with 9 samples.

Results

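The 10 genes described here encode proteins that build, regulate or use the microtubules of growing nerve cell processes: the beta tubulins Tubb3 and Tubb2b, the motor heavy chain Kif5c, the stathmins Stmn1, Stmn2, Stmn3 and Stmn4, the collapsin response mediators Crmp1 and Dpysl3, and the growth cone protein Gap43. They were chosen by gene symbol, and each symbol matched 1 of the 57010 gene identifiers in both comparison tables, so 10 of 57010 rows are described. The study sequenced RNA of mouse organoids, miniature tissues kept in culture, in 9 libraries. Normal lung gave 3 libraries (Normal), small cell lung cancer gave 3 (SCLC), and SCLC organoids given an agent that the labels name only as GSK gave the last 3 (GSK). The strain, genotype and age of the mice, the origin of the tumour organoids, and the identity, dose and duration of GSK are not given in these sources. Nothing in the labels says whether the 3 libraries of a group came from separate animals or cultures, so the p-values measure only the spread among these samples, which may be technical.

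Microtubules are polymers of alpha and beta tubulin, and nerve cells use particular beta tubulins, stathmins that bind free tubulin and promote disassembly, and collapsin response mediators that bind tubulin and relay guidance signals. Small cell lung cancer is a neuroendocrine tumour, and neuroendocrine cells share many transcripts with neurons. In cells outside the nervous system the repressor encoded by Rest binds a DNA element named RE1 and holds many neuronal genes down.

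The values came from 2 tables deposited by the authors, SCLC against Normal and GSK against a control taken as SCLC, each over 6 libraries. No column held a single library, so the depth of each library is unknown and the spread between replicates is seen only through the authors' standard errors. Levels are group means of normalized counts, implied by the authors' mean over 6 libraries and their fold change. A mean under 1 normalized count, or 3 counts over a group, was treated as under a floor, and a fold against it is a lower bound that covers counting error only. A value under the floor follows from the fitted fold change and is not a measured level. Summed group means were 42.0 to 45.3 M normalized counts in SCLC and Normal and 31.9 M in GSK. The labelled tumour identity was checked against 7 neuroendocrine markers, of which 7 were higher in SCLC than in Normal and 0 lower. In GSK, markers of immune cells, endothelium and fibroblasts that were low or under the floor in SCLC were abundant. The common leukocyte gene Ptprc had an implied mean under the floor in SCLC (0.0877) and a mean of 12562 in GSK. The GSK group therefore differed from SCLC in transcripts of other cell types as well as in treatment, and in bulk RNA fewer cells of a type and less RNA per cell cannot be told apart.

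In SCLC against Normal, 7 of the 8 members with an adjusted p were higher in SCLC, 0 were lower and 1, Dpysl3, did not pass at an adjusted p of 0.05 in the authors' Wald test (at an unadjusted p under 0.05 the number lower was also 0). Of all 24719 genes tested, 25.3% were higher and 25.1% lower, and the median log2 fold change was 0.10 against 6.41 over the 8 members. Crmp1, Stmn3, Stmn4 and Gap43 had Normal means of at most 3.74 and entered the tested set through their SCLC level, so the count describes these 8 genes and no more. Tubb2b and Stmn2 had a fold change but no p-value in the authors' deposited table, a gap found for 134 genes in all. The reason is not given in these sources. Whether single extreme libraries lay behind it was not tested, so the group means of both genes are uncertain as well.

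Markers of other cell types moved with this comparison. Of 8 alveolar and airway markers 8 were lower in SCLC (summed mean 2692510 to 6400.2), as were 6 of 6 fibroblast and mural markers (8974 to 21.9) and 3 of the 3 immune markers with an adjusted p (1141 to 51.7 over 4). Of 3 endothelial markers 1 fell (94.3 to 49.7), and of 6 markers of dividing cells 6 rose (7751 to 76671). The 7 neuroendocrine markers went from a summed mean of 23.9 to 140522. Markers of other neurons went from 172.5 to 3349, with 4 higher and 1 lower, and Snap25 alone held 1868 of the SCLC sum. Those of Schwann and glial cells went from 3416 to 6661, with 1 higher and 1 lower. Mbp alone held 3343 and 6609 of these sums, and Sox10 was under the floor in both groups, so the sums follow single genes. The part of these cell types in the differences of the 10 genes was not tested.

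Some members overlap other gene models in GENCODE M21. Stmn1 shares exon bases with the miRNA model Gm23634 on the same strand. Tubb3 lies over the protein-coding model Gm20388 on the same strand and Crmp1 over Evc on the opposite strand, both without overlap of exons. How reads over such overlaps were assigned is not given in the labels.

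**Figure D1:**
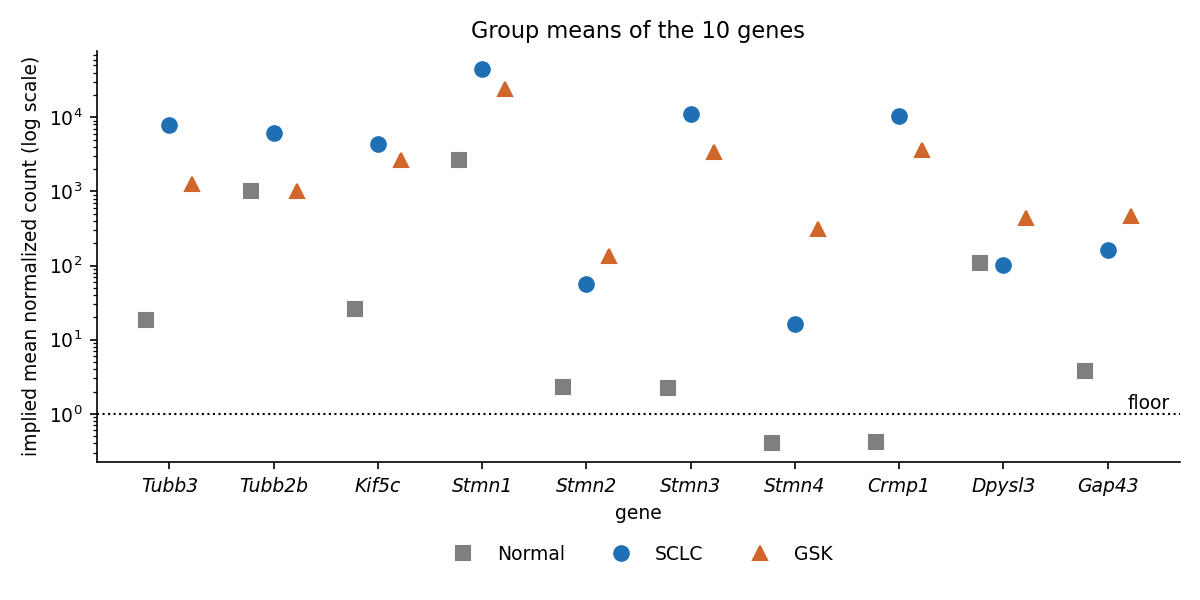
Implied mean normalized count (vertical axis, log scale) of each of the 10 genes in Normal (squares), SCLC (circles, first table) and GSK (triangles, second table). Points are group means of 3 libraries and carry no error because no library values were used. The dotted line is the floor of 1. SCLC circles lie above the Normal squares for every gene but Dpysl3, and GSK triangles lie above the SCLC circles for Stmn2, Stmn4, Dpysl3 and Gap43.

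Tubb3 encodes the class III beta tubulin used as a marker of neurons. Its implied mean was 18.3 in Normal and 7959 in SCLC, a 435-fold difference. In the authors' deposited table its log2 fold change was 8.76 ± 0.58 (standard error) with an adjusted p of 3.5e-50. Tubb2b, a beta tubulin of developing neurons, was already at 1011 in Normal and stood at 6067 in SCLC. For Tubb2b the authors' deposited table gave 2.59 ± 0.78 and no p-value. Among its sequence relatives Tubb2b has one near copy: over their coding sequences Tubb2b and Tubb2a were 96.5% identical, and 26.1% of the 100-base windows of the Tubb2b transcript also occurred in Tubb2a. How reads shared by the pair were counted is not given in the labels, so the Tubb2b values are uncertain. Tubb3 shared 0 such windows with any other gene and was 81.3% to 83.4% identical to the other beta tubulins compared, so its level does not carry that uncertainty.

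The beta tubulin genes differ most in the last stretch of coding sequence, which encodes the acidic tail that motors and modifying enzymes read. The stretches below show how this tail of Tubb3 differs from those of its relatives and how closely Tubb2b and Tubb2a match there. The transcript of Tubb3 can be told from its relatives elsewhere too, since it shared 0 windows with them. Each is the final 60 coding bases with the stop codon, 5′ to 3′, from GENCODE M21 (GRCm38), with in-frame glutamate codons (GAA or GAG) in capitals.
Tubb3, chr8:123421623-123421682, plus strand: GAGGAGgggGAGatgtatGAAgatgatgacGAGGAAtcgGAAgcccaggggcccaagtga
Tubb2b, chr13:34127471-34127530, minus strand: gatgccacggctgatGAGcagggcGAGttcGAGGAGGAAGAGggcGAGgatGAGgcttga
Tubb2a, chr13:34074468-34074527, minus strand: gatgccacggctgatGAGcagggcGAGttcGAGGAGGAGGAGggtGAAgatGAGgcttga
Tubb5, chr17:35834982-35835041, minus strand: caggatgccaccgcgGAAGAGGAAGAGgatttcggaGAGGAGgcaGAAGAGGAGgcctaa
Tubb4a, chr17:57080690-57080749, minus strand: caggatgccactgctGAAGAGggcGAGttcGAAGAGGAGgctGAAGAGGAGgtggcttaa
Tubb4b, chr2:25222308-25222367, minus strand: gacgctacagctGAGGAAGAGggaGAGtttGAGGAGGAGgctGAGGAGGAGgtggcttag
Tubb3 holds 7 glutamate codons among the 19 codons before the stop, Tubb2b and Tubb2a hold 8 each, Tubb5 and Tubb4a hold 9 each and Tubb4b holds 10.

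Kif5c encodes a heavy chain of kinesin-1, the motor that carries cargo along axons. Its mean was 26.0 in Normal and 4391 in SCLC, 169-fold higher. The authors' deposited table listed it at 7.40 ± 0.45 (adjusted p = 6.21e-59). Of the other heavy chains of the same motor, the neuronal Kif5a rose and the widely expressed Kif5b fell. Kif5a went from 52.3 to 2480 (5.57 ± 0.58, adjusted p = 6.23e-21) and Kif5b from 11249 to 5345 (-1.07 ± 0.30, adjusted p = 0.00111), by the authors' deposited table for the fold changes.

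Of the 4 stathmins, Stmn1, Stmn3 and Stmn4 rose in SCLC, and Stmn2 had no p-value. Stmn1, the widely expressed member that is abundant in dividing and developing cells, went from 2667 to 44217, and the authors' deposited table put the change at 4.05 ± 0.36 on the log2 scale (adjusted p = 5.23e-28). Stmn3, a neuronal member, stood at 2.23 in Normal and 10956 in SCLC. Stmn4, another neuronal member, had a Normal mean of 0.401, under the floor, and an SCLC mean of 16.3, at least 16.3-fold higher (adjusted p = 0.00175 in the authors' deposited table). Stmn2, a neuronal stathmin of growing axons, had means of 2.27 and 56.5, and its 4.63 ± 1.55 in the authors' deposited table came without a p-value. Stmn4 had a mean of 8.36 over the 6 libraries and was not among the 6 members called when only genes whose mean reached 10 were tested, and with a floor of 3 per library its bound was 5.44-fold. For Stmn1, 26.1% of 100-base transcript windows also occur in the gene model Gm11223, which itself rose (3.99 ± 0.28 in the authors' deposited table), so reads of the pair may be split.

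Crmp1, which relays semaphorin signals to microtubules, had an implied mean under the floor in Normal (0.411) and a mean of 10317 in SCLC. It passed with 5.26e-31 as its adjusted p, per the authors' deposited table. Dpysl3, the other collapsin response mediator among the 10, had almost equal means of 109.9 in Normal and 103.2 in SCLC. The authors' deposited table gave Dpysl3 -0.09 ± 0.73 (adjusted p = 0.930), an error wide enough that a change of either sign is not excluded at this precision. The remaining family members were higher in SCLC. The authors' deposited table gave Dpysl5 7.51 ± 0.39 and Dpysl2 1.38 ± 0.35 (adjusted p = 1.28e-81 and 0.000269). Dpysl4 was at least 1812-fold higher against the floor, and its adjusted p was 2.66e-19 there.

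Gap43 encodes a membrane phosphoprotein of growth cones. It went from 3.74 in Normal to 159.7 in SCLC, 42.7-fold higher. The authors' deposited table gave 5.41 ± 0.80 with an adjusted p of 9.47e-11. Basp1, a related growth cone protein, went from 491 to 14733 (4.91 ± 0.43, adjusted p = 2.49e-28, fold change from the authors' deposited table).

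**Figure D2:**
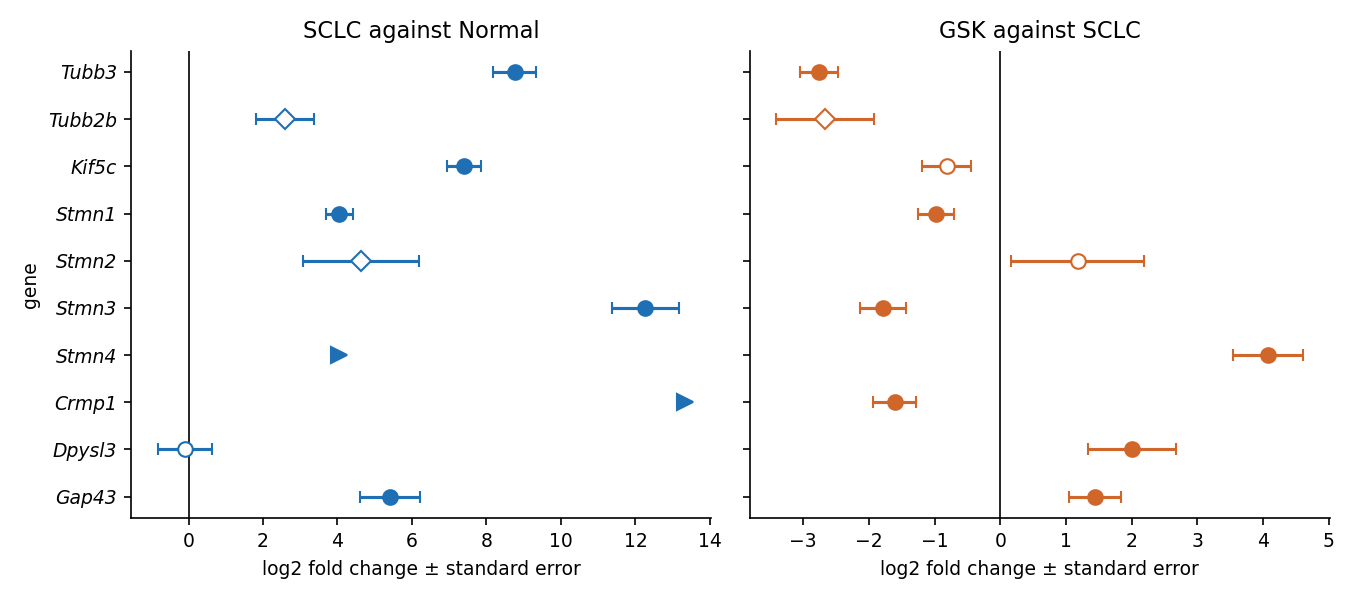
Log2 fold change (horizontal axis) of each gene with the authors' standard error as bars, SCLC against Normal on the left and GSK against SCLC on the right. Filled circles passed an adjusted p of 0.05, open circles did not, open diamonds had no p-value, and triangles are lower bounds against the floor, drawn without an error. On the left Crmp1 lies farthest to the right at its bound of 10317-fold, then Stmn3 at 12.26, and only Dpysl3 lies at 0 within its error. On the right Tubb3, Stmn1, Stmn3 and Crmp1 are filled below 0 and Stmn4, Dpysl3 and Gap43 are filled above it.

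Because most members moved one way in SCLC, the bases before their start sites were read. Windows from 250 bases before to 50 after a RefSeq start (GRCm38.p6) were found for Crmp1 (2 starts), Kif5c, Stmn3 and Tubb3. The 100 bases before each start are printed 5′ to 3′ on the gene's strand, with CG dinucleotides in capitals, to show that these promoters do not share one base composition.
Crmp1 first start, chr5:37241958-37242057, plus strand: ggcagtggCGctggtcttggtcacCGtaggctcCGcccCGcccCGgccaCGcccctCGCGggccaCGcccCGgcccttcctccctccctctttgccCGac
Crmp1 second start, chr5:37245664-37245763, plus strand: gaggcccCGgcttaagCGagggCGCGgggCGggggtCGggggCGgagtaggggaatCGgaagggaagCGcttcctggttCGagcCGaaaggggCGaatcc
Kif5c, chr2:49619186-49619285, plus strand: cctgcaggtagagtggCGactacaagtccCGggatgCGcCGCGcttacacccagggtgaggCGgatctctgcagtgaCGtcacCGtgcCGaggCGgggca
Stmn3, chr2:181314501-181314600, minus strand: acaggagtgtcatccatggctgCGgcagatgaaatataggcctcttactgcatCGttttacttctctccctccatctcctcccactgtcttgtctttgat
Tubb3, chr8:123411453-123411552, plus strand: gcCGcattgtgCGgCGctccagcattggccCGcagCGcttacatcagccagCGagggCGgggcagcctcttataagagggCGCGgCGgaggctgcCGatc
Over the whole 300-base windows the CG count was 41 and 20 at the starts of Crmp1, 26 at Tubb3, 14 at Kif5c and 6 at Stmn3, beside a median of 7 over 32851 windows. Both strands of these 5 windows were searched for the Rest element RE1, taken as TTCAGCACC and, after any 2 bases, GGACAG with up to 1 mismatch in each part. The element was in 0 of 5 windows and in 0.0974% of all windows. The E-box CAGCTG was in 0 of 5 (16.3% of all windows), and TATAAA was in 1 of 5, that of Kif5c (13.6% of all windows). These letters say nothing of binding, and elements outside the windows were not searched.

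In GSK against SCLC the members moved in opposite directions. Of the 9 members with an adjusted p, 4 were lower in GSK (Tubb3, Stmn1, Stmn3 and Crmp1), 3 were higher (Stmn4, Dpysl3 and Gap43) and 2 did not pass (Stmn2 and Kif5c). Among all 28376 genes tested, 15.5% were lower and 21.6% higher, and the median log2 fold change was 0.24 against -0.82 over the 9 members. The comparison shares its SCLC libraries with SCLC against Normal, so the values of each gene are set side by side without a measure of their relation. Scaling to equal summed counts would move every log2 fold change of this comparison up by 0.51, and scaling to the median of abundant genes (mean at least 100) by 0.25. Under the first, the share of all calls that were higher went from 58.2% to 81.6%, and under the second to 70.2%.

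Tubb3 had a mean of 8565 in SCLC and 1264 in GSK, 6.77-fold lower. The authors' deposited table gave it -2.76 ± 0.28 (adjusted p = 1.99e-20), the largest fall among the members that passed. At 1264 it remained far above its Normal mean of 18.3, although the tables were scaled separately and that pair was not tested. Tubb2b stood at 6424 in SCLC and 1009 in GSK, at -2.67 ± 0.74 in the authors' deposited table, again without a p-value. Its near copy Tubb2a went from 3854 to 2239 and did not pass (-0.78 ± 0.60, adjusted p = 0.324, in the authors' deposited table).

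Kif5c had means of 4699 in SCLC and 2671 in GSK. Its -0.82 ± 0.37 in the authors' deposited table did not pass (adjusted p = 0.0715). Neither of the other heavy chains passed: Kif5a was at -0.30 ± 0.49 and Kif5b at 0.57 ± 0.33 in the authors' deposited table (adjusted p = 0.682 and 0.169).

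Within the stathmins, Stmn1 and Stmn3 fell and Stmn4 rose. Stmn3 went from 11868 to 3443, 3.45-fold lower (-1.79 ± 0.35, adjusted p = 2.86e-06, fold change from the authors' deposited table). Stmn1 went from 47766 to 24250, and its -0.98 ± 0.27 passed in the authors' deposited table (adjusted p = 0.00139). Under scaling to summed counts the Stmn1 value was -0.47 and no longer passed (adjusted p = 0.162). Stmn4 rose from 18.2 to 307.6, 16.9-fold, at 4.08 ± 0.54 in the authors' deposited table (adjusted p = 6.79e-13). Stmn2 had means of 59.7 and 135.6 and did not pass (1.18 ± 1.01, adjusted p = 0.383, in the authors' deposited table). Per kb of exon, Stmn4 was the lowest of the stathmins in SCLC (8.51, beside 10.1 for Stmn2) and stood above Stmn2 in GSK (160.5 and 24.2).

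The collapsin response mediators split as well. Crmp1 went from 11147 to 3661, 3.05-fold lower, and the authors' deposited table gave -1.61 ± 0.33 (adjusted p = 7.98e-06). Dpysl3, which did not pass between Normal and SCLC, went from 109.6 to 441.4 in GSK, 4.03-fold higher, at 2.01 ± 0.67 in the authors' deposited table (adjusted p = 0.00974). Of the other mediators, Dpysl4 (-2.00 ± 0.49, adjusted p = 0.000253) and Dpysl2 (-0.97 ± 0.32, adjusted p = 0.00931) fell and Dpysl5 did not pass (-0.52 ± 0.27, adjusted p = 0.124), by the authors' deposited table. Scaling to summed counts would move each up by 0.51, and Dpysl2 then no longer passed. Dpysl3 was the member of this family that rose.

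Gap43 rose from 170.7 to 464.9, 2.72-fold, with 1.45 ± 0.39 in the authors' deposited table (adjusted p = 0.00121). Basp1, by contrast, was lower in GSK, and the authors' deposited table put it at -0.70 ± 0.24 (adjusted p = 0.0129). Scaling to summed counts would move Basp1 up by 0.51, most of the size of its fall, so that fall depends on the scaling.

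Markers of several cell types moved with these differences. All 4 immune markers rose in GSK, and their summed mean went from 55.8 in SCLC to 16972, with Ptprc, the macrophage gene Adgre1 and the T cell gene Cd3e under the floor in SCLC. All 3 endothelial markers rose (summed mean 52.9 to 13015), with Cdh5 under the floor in SCLC, and all 6 fibroblast and mural markers rose (23.7 to 14417). Of 8 alveolar and airway markers 5 rose and 0 fell (6913 to 12802). Of 7 neuroendocrine markers 4 fell, among them Insm1, Syp and Scg3, and Calca rose, and the sum went from 151656 to 67342. Among 6 Schwann and glial markers 2 rose, among them S100b, while Sox10, another marker of this list, was near the floor in both groups (1.03 and 1.09). The sum went from 7182 to 6309, of which Mbp alone held 7126 and 6046. Of 9 markers of other neurons 7 had an adjusted p, and Gad1 and Th rose and Slc17a7 fell, with Gad2 under the floor in both groups. Their summed mean went from 3608 to 6240, of which Snap25 held 2013 and 2529. Of 6 markers of dividing cells 4 fell and Mki67 rose (82808 to 72538). The part of these cell types in the differences of the 10 genes was not tested. When fold changes were moved up by 0.64, so that the median neuroendocrine marker was level, Tubb3, Stmn3 and Crmp1 still fell and Stmn4, Dpysl3 and Gap43 still rose, while Stmn1 had -0.33 (adjusted p = 0.335).

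**Figure D3:**
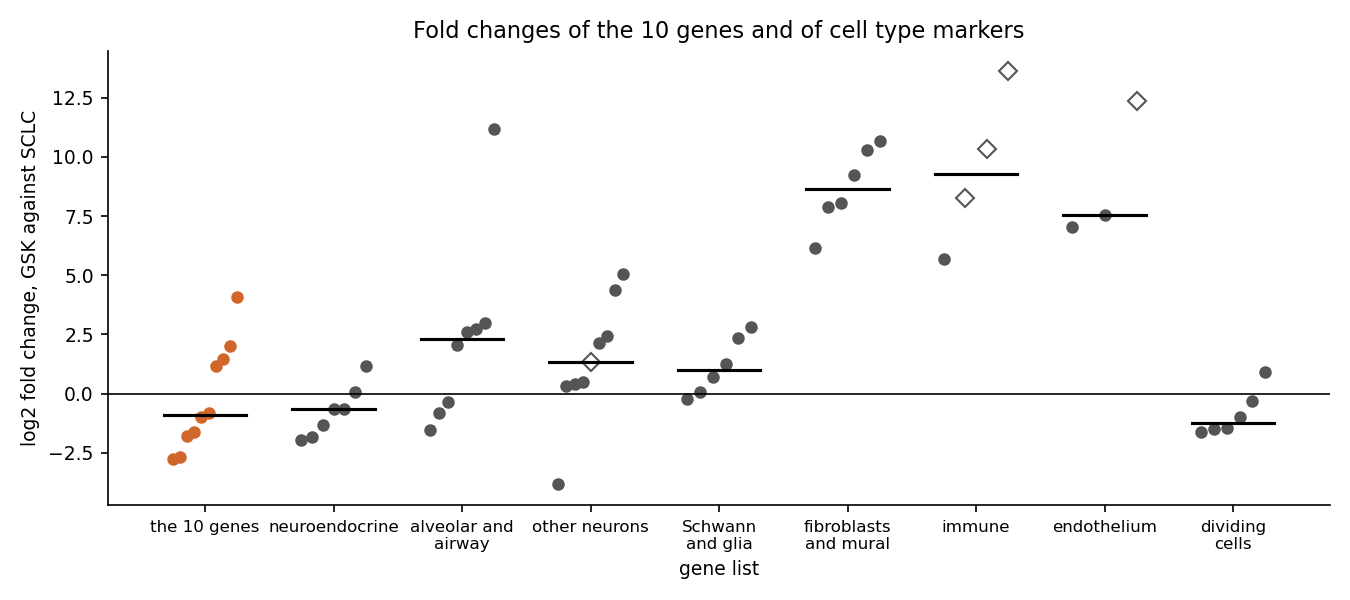
Log2 fold change in GSK against SCLC (vertical axis) of the 10 genes (orange) and of 8 lists of cell type markers (grey). Each point is a gene, bars are list medians, and open diamonds are lower bounds for genes under the floor in SCLC, which enter the medians at their bound. The 10 genes spread from -2.76 to 4.08 around a median of -0.90. That lies between the medians of the neuroendocrine markers (-0.64) and of dividing cells (-1.22). All immune, endothelial and fibroblast markers lie above 5.

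Within their families the members' shares of the transcript level shifted between groups. Levels were divided by exonic length for this, so that genes can be compared, and the shares carry no replicate error. In Normal, Tubb3 made up 0.0920% of the summed beta tubulin level per kb. The share was 7.48% in SCLC and 3.27% in GSK. Tubb2b made up 4.14%, 4.65% and 2.12%, and the bulk in SCLC was Tubb5 (59.6%), the beta tubulin of dividing cells. Stmn1 was nearly the whole stathmin level in Normal (99.8%), and in SCLC it shared that level with Stmn3 (70.4% and 29.5%). In GSK, Stmn4 reached 1.01% of the stathmin level, from 0.0261% in SCLC. Crmp1 made up 38.9% of the mediator level in SCLC and 27.7% in GSK. In Normal it was under the floor, so its share there (0.0106%) is not a measured one. Dpysl2 held 96.3%, 36.4% and 40.1% in Normal, SCLC and GSK. Kif5c made up 0.256% of the kinesin-1 heavy chain level in Normal, 37.5% in SCLC and 21.3% in GSK, and Kif5b 99.2%, 40.9% and 61.1%. In Normal the stathmin, mediator and kinesin-1 levels were thus each at least 96.3% a single widely expressed paralog, and in SCLC Stmn3, Crmp1 and Kif5c stood beside it.

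**Figure D4:**
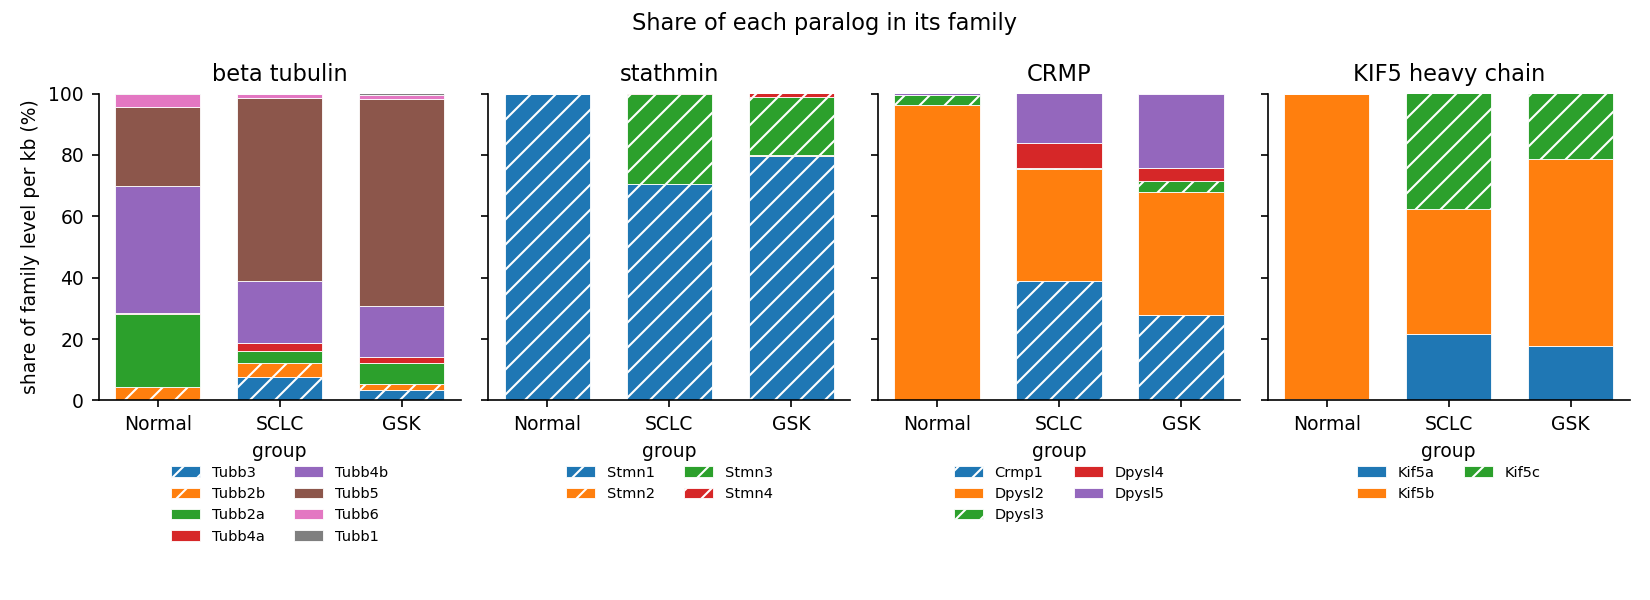
Share of each paralog (vertical axis, percent) in the summed level per kb of its family in Normal, SCLC and GSK, with the 10 genes hatched. Bars are computed from group means and carry no error. Hatched Tubb3, Stmn3, Crmp1 and Kif5c segments appear in SCLC, at 7.48%, 29.5%, 38.9% and 37.5%, and are smaller in GSK.

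Per kb of exon, the order of the 10 genes in SCLC from high to low was Stmn1, Stmn3, Tubb3, Tubb2b, Crmp1, Kif5c, Gap43, Dpysl3, Stmn2 and Stmn4. Stmn1 lay above 99.6% of the 17760 genes whose mean reached 10 in that table, Stmn3 above 98.8% and Tubb3 above 97.0%. Stmn2 and Stmn4 lay above 17.8% and 16.3%. In GSK, Stmn1, Stmn3 and Tubb3 again led, and Stmn4 rose to the eighth place, above 52.6% of 19121 genes. In Normal, Stmn1 led, above 91.1%, followed by Tubb2b above 74.1%. Stmn4 and Crmp1 were both under the floor there and stood at the end without a measured order. Neighbours in these orders could not be tested, because no library values were used. The places of Crmp1 and Stmn2 beside their neighbours also depend on the exon length used.

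The wider microtubule and axon machinery was read in 11 lists of 128 genes. In SCLC against Normal, 70 of these genes were higher and 25 lower, and in GSK against SCLC 17 were higher and 37 lower. Over all tested genes the shares were 25.3% higher and 25.1% lower in SCLC, and 21.6% higher and 15.5% lower in GSK. Scaling GSK to summed counts turned that split to 34 higher and 22 lower, so the direction of the lists as a whole in GSK rests on the scaling, while the called directions of Tubb3, Stmn3, Stmn4, Crmp1, Dpysl3 and Gap43 did not change with it.

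Other tubulins were also read beside Tubb3 and Tubb2b. Of 8 other beta and gamma tubulins 6 rose and 0 fell, with a median log2 fold change of 2.99 against 0.10 for all tested genes. Tubb5 went from 9156 to 112987 (3.63 ± 0.31, adjusted p = 7.35e-30, in the authors' deposited table) and Tubb4a, a neuronal beta tubulin, from 128.6 to 3251 (4.66 ± 0.51, adjusted p = 1.8e-18, by the same deposited table of the authors). Among 5 tested alpha tubulins 4 rose, led by the neuronal Tuba1a (4.20 ± 0.36 in the authors' deposited table), and Tuba8 fell (-2.76 ± 0.24 there). In GSK, 5 of the 8 beta and gamma tubulins and 5 of 5 alpha tubulins fell. The largest falls were those of Tubb4a (-1.94 ± 0.49), Tubb4b (-1.86 ± 0.23) and Tubb5 (-1.39 ± 0.26) in the authors' deposited table, each smaller in size than that of Tubb3. With scaling to summed counts 4 beta and gamma and 3 alpha tubulins were still lower in GSK.

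Proteins that bind microtubules differed in kind. Of 13 tested genes listed as neuronal microtubule-associated proteins 8 rose in SCLC. Among them were the doublecortin-like kinase Dclk2 (9.22 ± 0.50), Map7d2 (7.71 ± 0.49) and the tau gene Mapt (5.83 ± 0.44) in the authors' deposited table. Mapre3, Camsap3 and Tppp3 fell, from Normal means of 3946, 6338 and 1133, so not every gene of this list is particular to neurons. In GSK 10 of the 13 did not pass. Map2, of dendrites, rose (1.44 ± 0.39), as did Tppp3 (2.15 ± 0.44), and Map1lc3a fell (-1.84 ± 0.33), in the authors' deposited table. Of 10 general binding proteins 6 rose in SCLC and Map7 fell (-2.83 ± 0.36 in the authors' deposited table). In GSK 3 of them fell, Map1s, Mapre1 and Camsap1, and Map7 rose, but with scaling to summed counts 1 fell and 3 rose. Of 13 enzymes that modify tubulin 6 rose in SCLC, led by the detyrosinating Vash2 (5.56 ± 0.57) and Vash1 (3.19 ± 0.38), and the glutamylase Ttll7 fell (-1.45 ± 0.22), in the authors' deposited table. In GSK Vash1 (-1.02 ± 0.33) and the deacetylase Hdac6 (-0.86 ± 0.26) fell there, but both calls ended with scaling to summed counts, under which 0 of the 13 fell and 3 rose.

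Guidance and growth cone genes followed Crmp1 and Gap43 only in part. Of 12 other mediators and semaphorin receptors or ligands 4 rose in SCLC, of which Dpysl2, Dpysl4 and Dpysl5 are relatives of Crmp1, and 7 fell, among them the ligand Sema3a (-7.78 ± 0.28 in the authors' deposited table). In GSK, the receptor gene Nrp1 (2.61 ± 0.57), Sema3c (5.22 ± 0.71) and Sema3f rose and Dpysl2, Dpysl4 and Plxna2 fell, in the authors' deposited table. Scaled to summed counts, 4 of the 12 rose and 2 fell. Of 13 growth cone and membrane proteins 8 rose and 3 fell in SCLC, and in GSK 7 fell and 0 rose. Gprin1, a partner of G proteins in growth cones, had 10.22 ± 0.64 and then -1.23 ± 0.29, and Fez1, a kinesin adaptor, 8.66 ± 0.72 and then -1.62 ± 0.40, in the authors' deposited tables. The 6 that did not pass included Nrn1, singled out after its value was seen, at 1.96 ± 0.84 (adjusted p = 0.0523) in the authors' deposited table. Its mean over the 6 libraries of that comparison was 15.5. In SCLC Nrn1 fell, opposite to Gap43 (-5.26 ± 0.60, adjusted p = 1.34e-17, in the authors' deposited table). With scaling to summed counts 4 of the 13 fell and 1 rose.

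Of 21 axon guidance receptors and adhesion molecules 12 rose and 5 fell in SCLC, and 6 rose and 5 fell in GSK. The receptor Epha5 was at least 2650-fold higher in SCLC against the floor and fell in GSK (-6.08 ± 0.61 in the authors' deposited table). Slit3, a secreted guidance cue, was at least 777-fold lower in SCLC and at least 294-fold higher in GSK, both against the floor. With scaling to summed counts 7 of the 21 rose and 2 fell in GSK. Of 16 other transport kinesins and adaptors 5 rose and 3 fell in SCLC, led by Kif5a and the vesicle motor Kif1a (5.22 ± 0.37 in the authors' deposited table). In GSK 3 fell, Kif1a, Klc1 and Klc2, and Kif21b rose, and with scaling to summed counts 3 fell and 5 rose. The kinesin counts in SCLC lie near the shares over all tested genes. In GSK those shares were 21.6% higher and 15.5% lower. The lower counts of kinesins and of tubulin enzymes lie near them, and those of axon guidance genes not far above. Both counts of the genes listed as neuronal microtubule-associated proteins lie under them. Among 6 neuronal intermediate filaments 4 rose in SCLC, with Ina at 12.27 ± 0.78 and Prph at 8.32 ± 0.89 in the authors' deposited table, and in GSK Ina fell (-1.16 ± 0.30) and Prph rose (1.20 ± 0.27) there. With scaling to summed counts Ina no longer passed, and 2 of the 6 rose and 0 fell.

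**Figure D5:**
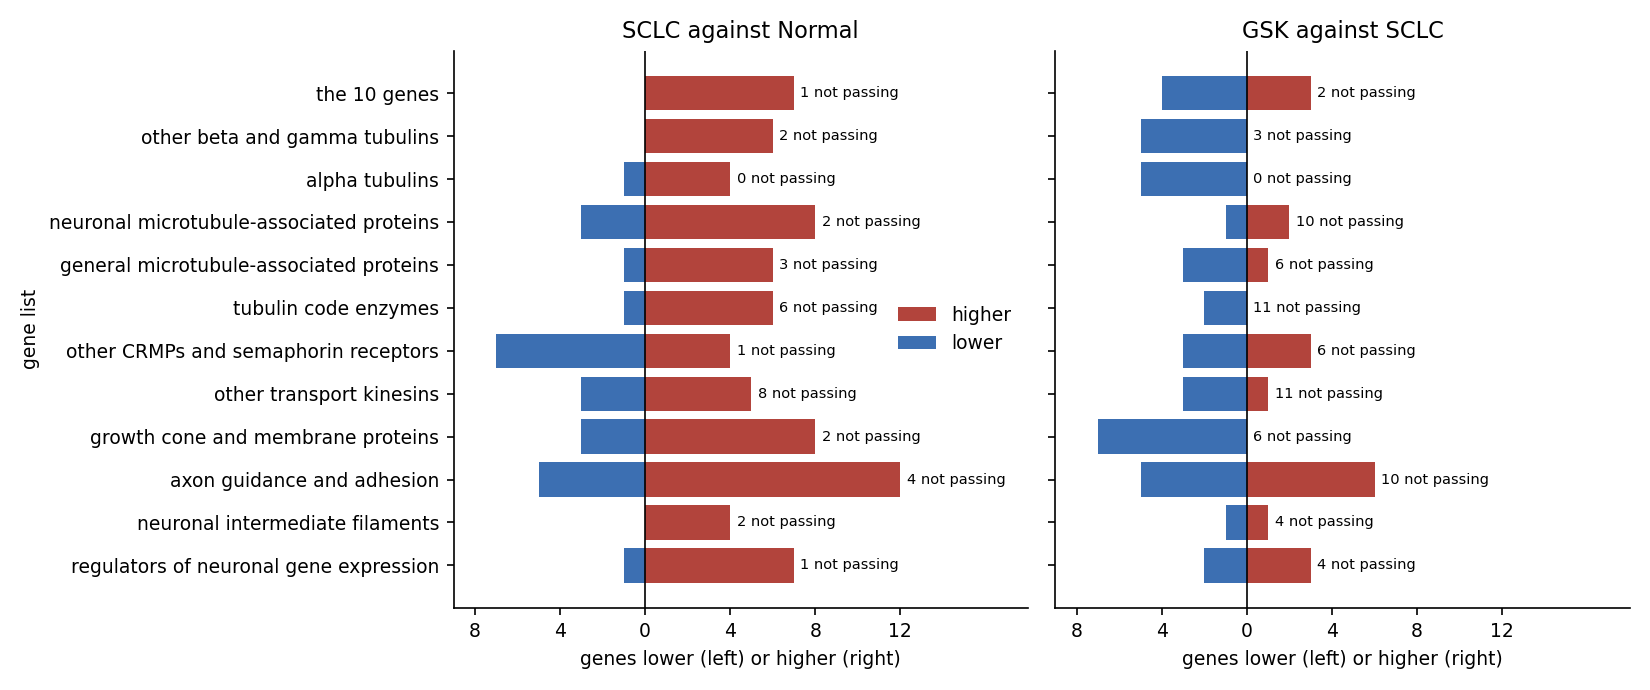
Number of genes lower (blue, left) and higher (red, right) at an adjusted p of 0.05 in the 10 genes and in each of 11 lists, SCLC against Normal on the left and GSK against SCLC on the right, with the number that did not pass beside each bar. In SCLC most bars point right, with 7 of the 10 genes higher. In GSK the other beta and gamma tubulins, alpha tubulins, tubulin code enzymes and growth cone proteins have 0 genes to the right.

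Of 9 regulators of neuronal gene expression 7 rose in SCLC, among them Insm1, and Rest fell. The Rest mean was 2720 in Normal and 118.3 in SCLC, 23.0-fold lower (-4.52 ± 0.77, adjusted p = 2.26e-08, fold change from the authors' deposited table). In GSK it rose from 126.5 to 764.4 (2.60 ± 0.85, adjusted p = 0.00795, in the authors' deposited table), while Insm1 (-1.95 ± 0.27) fell there. Neurod1 rose in GSK (3.38 ± 0.89, adjusted p = 0.000755, in the authors' deposited table), as did Elavl4.

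The genes whose pair of fold changes lay nearest to the members' median pair were read by Euclidean distance over 5219 genes called in both comparisons with means of at least 10. The members' median pair was 5.38 in SCLC and -0.90 in GSK, with the first at 5.02 when Crmp1 and Stmn4 enter at their bounds. Each median was taken separately, and no single member had this pair. Stmn1 had 4.05 and -0.98, while Gap43 had 5.41 and 1.45. Nearness to the pair is therefore not likeness to any member. The nearest 5 were Dctd, Chrnb2, Rnf157, Syn2 and Spsb4, at distances from 0.14 for Dctd to 0.33 for Spsb4. Dctd, a deaminase of nucleotide synthesis, had 5.27 and -0.81, Chrnb2, a nicotinic receptor subunit, had 5.60 and -0.97, and Syn2, a synaptic vesicle protein, had 5.39 and -1.22, in the authors' deposited tables.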

How the data were processed

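RNA was measured in 9 libraries, 3 per group. Reads were paired, 150 bases long and from a stranded mRNA kit, per the labels, and were aligned with STAR 2.7.9a to GRCm39, per the submitters' processing notes; the counting tool and the test are not given in these sources. The columns have the names that DESeq2 gives its results, per the file headers. As signal, the authors deposited each gene's mean normalized count over the 6 libraries of a comparison. The authors' log2 fold change and standard error, the score (their Wald statistic, fold change over standard error) and the p-value columns were used as deposited, with the authors' adjusted p under 0.05 as the call. That adjusted p was present for 24719 and 28376 genes. Tubb2b had no p-value in either table and Stmn2 none in the first.

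Group means were implied from the mean over 6 libraries and the fold change. The control of the second table was taken as SCLC: over 13634 genes whose mean reached 50 in both tables, its implied means differed from those of SCLC in the first table by a median log2 ratio of 0.109 with an SD of 0.0084, against an SD of 3.03 for Normal. A floor of 1 (3 counts over a group) set lower bounds of folds. Levels per kb and coding sequence came from GENCODE M21 (GRCm38) by identifier, and start site windows from RefSeq (GRCm38.p6); no coordinate was converted. Of the 10 genes, 4 matched the start site table, and sequence of Dpysl3 is not reported here.

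The members, lists and alternatives were chosen with earlier results of these data known, and no list test was run. Named genes were all 10 members, their paralogs with Basp1 and Rest, the 3 largest changes per list and comparison among genes with a mean of at least 10, every gene of a direction with 5 or fewer calls, and the 5 genes nearest to the members' median pair. Ptprc and other cell type markers come from 8 marker lists. Gm11223, and the markers named singly, were picked after their values were seen; some listed genes are not reported here by name. Alternatives were other adjustments, a mean filter, 3 scalings, a stricter threshold, a test of log2 fold change beyond 1 and another floor. Scripts ran in Python 3.11.15 with pandas 2.3.3, numpy 2.4.6, scipy 1.17.1, biopython 1.88 and matplotlib 3.10.9, and the call and adjustment steps were tested on simulated data.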

Additional observations from a re-analysis of the deposited data

How the results depend on the processing

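Of the members' fold changes under the alternatives, 136 kept their direction and stayed called or uncalled, 7 lost their call, 3 gained one and 0 reversed. Only the scalings move a fold change, so no direction could reverse under the other alternatives. The 136 include values of Tubb2b and Stmn2 that had no adjusted p. Members without an adjusted p under the mean filter were left out, so the loss of Stmn4 in SCLC is not among the 7. The 3 gains came when missing p-values were taken from the authors' statistic, an alternative chosen after seeing the data. Under it Tubb2b reached adjusted p = 0.00249 in SCLC and 0.00149 in GSK, and Stmn2 0.00685 in SCLC, by the Wald statistic. It sets aside whatever step left these p-values out, so the 3 gains are no evidence that these genes pass. Against a log2 fold change beyond 1, the members called in GSK went from 7 to 2 (1 higher, Stmn4, and 1 lower, Tubb3), since Stmn1, Stmn3, Crmp1, Dpysl3 and Gap43 lost their call, while the 7 calls in SCLC stayed. Stmn1 in GSK also lost its call under scaling to summed counts and to the neuroendocrine markers, the latter chosen after seeing the data. In the 128 listed genes, that stricter test left 16 of 25 lower in SCLC, and in GSK 5 of 17 higher and 6 of 37 lower. At an adjusted p of 0.01, 11 were higher in GSK. Scaled to summed counts, GSK had 34 higher and 22 lower, and scaled to the neuroendocrine markers 36 higher and 16 lower, with 86.1% of all calls higher. The cause of these changes was not tested. With a floor of 3 per library the bounds in SCLC were 3440-fold for Crmp1 and 5.44-fold for Stmn4. No paired analysis was possible because the tables hold no library columns, and leaving out replicates was not run for the same reason. Depth per library is unknown, so how far it limits Stmn2 and Stmn4 could not be assessed.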
